A study of Mus musculus with 14 samples.

Results

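This account covers the cultures of the study's first experiment, 4 treated with ND-646 and 4 with vehicle, which are 8 of its 14 libraries. The members were taken as the 8 columns of 1 deposited table whose titles name them Control or ND-646, and the other 6 libraries, CD8+ T cells from spleen and tumour, are not described. All 8 cultures were started from whole splenocytes of OT-1 mice, which carry a T cell receptor for an ovalbumin peptide, and the labels give their genotype as WT and their cell type as CD8+ T cells. The peptide was given to all cultures at 1 µg/mL, together with recombinant human interleukin-2 at 200 U/mL. The ND-646 group also received 100 nM of that compound and the vehicle group DMSO, during 3 days of activation and 4 days of expansion, so RNA was taken at 7 days. No sort preceded the RNA extraction in the protocol of these cultures, and the spleen's other cells were present at the start.

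ND-646 inhibits acetyl-CoA carboxylase, the enzyme that makes malonyl-CoA. Malonyl-CoA is the building block of fatty acid synthesis and, at the outer mitochondrial membrane, a brake on fatty acid import. A T cell that divides after activation builds membrane, cytoskeleton, nucleotides and protein in quantity, and when amino acids run short it phosphorylates an initiation factor of translation and raises the transcription factor ATF4. Lipid genes and the usual genes of T cell state are left aside here in favour of the rest of the transcriptome.

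The labelled cell type was first set against marker genes. All 18 CD8 T cell identity genes were measurable, 9 lower and 5 higher with ND-646 in the test described below, where 26.5% and 29.8% of all tested genes were. Their summed level was 6036 to 6368 CPM in vehicle and 5543 to 5653 CPM in ND-646 libraries. Cd8a went from 725 ± 48.6 to 475 ± 5.402 CPM. Values given this way run from the vehicle to the ND-646 mean ± SD (n = 4 each), and CPM is the count scaled to a library of 1000000 counts. Cd4 went from 1.33 ± 0.169 to 0.481 ± 0.129 CPM. Markers of other cells were scarce and many fell. Falls numbered 7 of 10 tested macrophage, monocyte and neutrophil genes, 8 of 11 natural killer and gamma delta T cell genes, 8 of 11 CD4 and regulatory T cell genes (5 with a stricter low-count filter) and 8 of 12 B cell genes (13 with no filter and 2 with the stricter one). Rises numbered 1, 2, 2 and 2 in the same order, of which the first was lost without vehicle replicate 1 or 2 or ND-646 replicate 1 or 4, and 1 natural killer rise without vehicle replicate 2, 3 or 4 or ND-646 replicate 2. Of 28 macrophage, monocyte and neutrophil genes 10 had enough counts to test and 7, S100a8, S100a9 and Lyz1 among them, had no count in any library. The summed level of the tested genes went from 257 to 268 CPM in vehicle and 72.5 to 80.3 CPM in ND-646 libraries, most of it Spp1, osteopontin, which activated T cells also make. Natural killer and gamma delta T cell markers summed to 233 to 245 CPM in vehicle and 195 to 205 CPM in ND-646 libraries over 11 of 16 genes. The largest part of this sum was Trdc, which rose by 0.24 ± 0.04 on the log2 scale, against a median of -1.22 over the list, with Tyrobp and Fcer1g, adaptors of natural killer and myeloid receptors, at -2.50 and -2.32. Sums for CD4 and regulatory T cell genes, 11 of 14 tested, were 1339 to 1357 CPM in vehicle and 914 to 941 CPM in ND-646 libraries, most of it Il2ra. B cell genes, 12 of 19 tested, summed to 154 to 171 CPM in vehicle and 211 to 229.5 CPM in ND-646 libraries, with Ighm, the immunoglobulin mu chain, and Cd74, the class II invariant chain, higher and carrying the larger sum. The median of the list was -1.65, and Cd79a and Cd79b, subunits of the B cell receptor, went from 0.495 ± 0.158 to 0.0915 ± 0.0365 CPM and 3.28 ± 0.652 to 1.12 ± 0.479 CPM. Dendritic cell genes (8 of 14) summed to 143 to 158 CPM in vehicle and 127 to 154 CPM in ND-646 libraries, mast cell and basophil genes (4 of 12) to 38.9 to 45.6 CPM in vehicle and 6.83 to 11 CPM in ND-646 libraries, fibroblast and endothelial genes (4 of 18) to 1566 to 1675 CPM in vehicle and 1146 to 1193 CPM in ND-646 libraries with Thy1, a T cell gene, as nearly the whole, and erythroid and platelet genes (2 of 14) to 8.68 to 10.9 CPM in vehicle and 8.89 to 10.1 CPM in ND-646 libraries. The part of these cells in the differences given here was not tested, and in bulk RNA fewer cells of a type cannot be told apart from less RNA per cell.

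Library totals were 23463093 to 33807709 counts. The first principal component of log2 CPM held 66.3% of the variance and separated the groups, and the second, with 8.03%, put ND-646 replicates 1 and 4 on one side and 2 and 3 on the other. Acaca and Acacb, which encode the inhibited enzymes, did not pass the test (log2 fold changes 0.02 ± 0.05 and 0.21 ± 0.13, SE). The female transcript Xist was present at 1655 to 2804 CPM in all 8 libraries and 4 Y-linked genes had no count, so no library pointed to a male donor. The share of counts in mitochondrially encoded genes was 3.05% ± 0.168 in the vehicle group and 2.30% ± 0.0180 with ND-646 (n = 4 each, SD; two-sided exact permutation p = 0.0286, the smallest possible, and 0.05 after adjustment over 7 such measures). The 500 most abundant genes took 42.5% ± 0.222 and 41.6% ± 0.424 of counts (p = 0.0286, exact permutation, 0.05 adjusted), and after thinning to 20000000 counts 16376 ± 64.3 and 15982 ± 147 genes held 3 or more counts, with the same p-values. The 10 most abundant genes took 6.49% in vehicle and 6.34% in ND-646 libraries (p = 0.143, exact permutation), and the 50 most abundant 15.3% and 15.1% (p = 0.257, exact permutation). Ribosomal protein genes took 10.2% and 10.7% (p = 0.0571, exact permutation), and predicted genes 2.35% and 2.17% (p = 0.0286, exact permutation).

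ND-646 moved many transcripts by a little and few by a lot. Of 14251 genes tested, 4247 (29.8%) were higher and 3781 (26.5%) lower with ND-646 by the quasi-likelihood test of edgeR (adjusted p below 0.05), 56.3% in all, and this background applies to each list below. Of the called genes, 71.8% changed by less than 1.5-fold. At least 2-fold changes were fewer, with 375 genes (2.63%) higher and 623 (4.37%) lower, and 77 and 154 passed 4-fold. In 7282 genes (51.1%) the 4 values of one group lay wholly above the 4 of the other. The median log2 fold change of all tested genes was 0.01. The labels do not say whether the libraries of a group came from separate mice or cultures, so these p-values measure the spread between libraries, which may be technical.

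**Figure D1:**
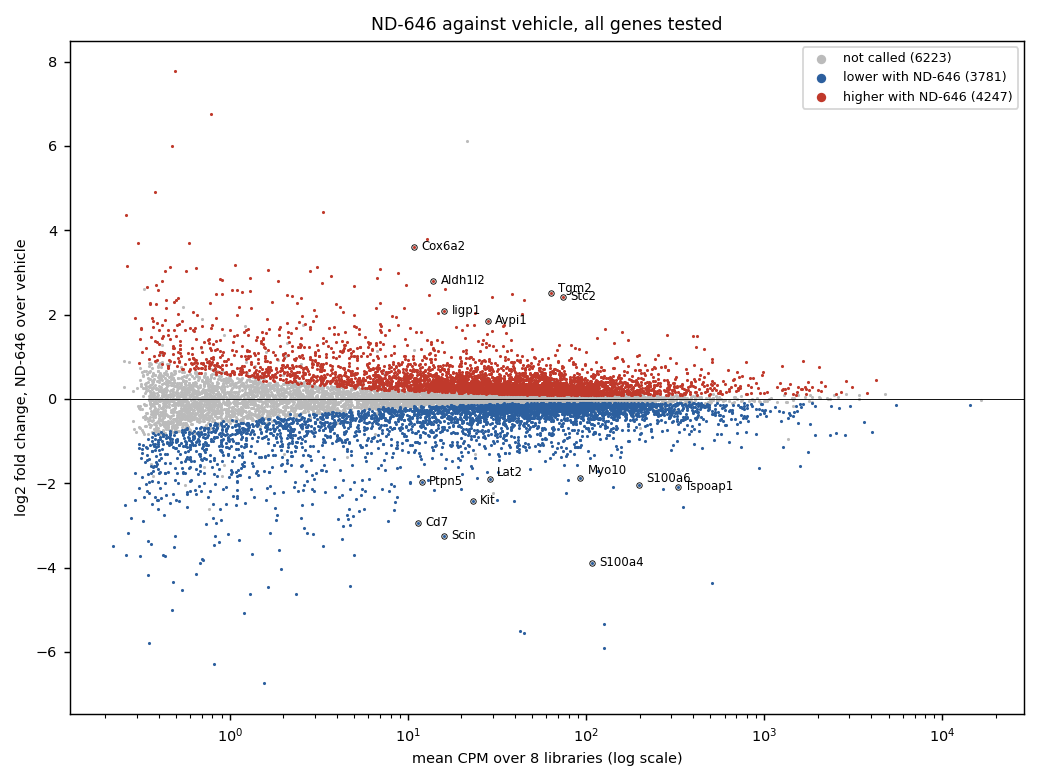
Each point is 1 of the 14251 tested genes, with the mean CPM over the 8 libraries on the horizontal axis (log scale) and the log2 fold change, ND-646 over vehicle, on the vertical axis. Called genes are coloured by direction, most lie within 1.5-fold of no change, and the labelled genes are examples from the 12 highest and 12 lowest described in the text.

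Individual genes were ranked at 10 mean CPM or more, leaving out lipid and T cell state genes, predicted and mitochondrially encoded genes and receptor segments. Only called genes whose groups did not overlap in CPM were ranked, so the lack of overlap in every ranked gene follows from that choice. The strongest fall was in S100a4, a calcium-binding protein that acts on non-muscle myosin. Its level was 190.1, 203, 209 and 205 CPM in vehicle replicates 1 to 4 and 14.2, 13.7, 14.3 and 12.2 CPM in ND-646 replicates 1 to 4. The groups lay far apart and the spread within each was small, with a log2 fold change of -3.89 ± 0.05 (SE; adjusted p = 2.1e-20, edgeR). S100a6, a relative in the same gene family, stood at 309, 325, 326 and 314 CPM in vehicle replicates 1 to 4 and 80.4, 75.4, 78.4 and 74.7 CPM in ND-646 replicates 1 to 4, again without overlap, and fell by 2.05 ± 0.04 on the log2 scale. Scin, the calcium-dependent actin-severing protein scinderin, was at 30.8, 28.2, 27.8 and 28.2 CPM in vehicle replicates 1 to 4 and 2.61, 2.96, 3.46 and 3.01 CPM in ND-646 replicates 1 to 4, a fall of 3.26 ± 0.08. Gelsolin, its relative encoded by Gsn, fell by 1.26 ± 0.11, from 94.6 ± 5.33 to 39.5 ± 6.58 CPM. Myo10, an unconventional myosin of filopodia, was at 154, 150.3, 135 and 145 CPM in vehicle replicates 1 to 4 and 34.1, 44.4, 45.2 and 35.5 CPM in ND-646 replicates 1 to 4, with every treated library far below every vehicle library (log2 fold change -1.87 ± 0.10, SE).

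Most genes of the actin cytoskeleton fell. Of 93 tested genes of actin, its regulators and myosins, 59 fell and 14 rose, with a median log2 fold change of -0.23, and 10 of the falls were at least 2-fold. The 3 largest losses of CPM were here, leaving out lipid and T cell state genes, predicted and mitochondrially encoded genes and receptor segments. Actb, beta-actin, stood at 5164, 5309.6, 4863 and 5135 CPM in vehicle replicates 1 to 4 and 2871, 2973, 3085 and 2938 CPM in ND-646 replicates 1 to 4, and all 4 treated libraries were below all vehicle libraries. Its log2 fold change was -0.79 ± 0.04 (SE), beside -0.55 ± 0.04 for gamma-actin, Actg1, and -0.80 ± 0.04 for Tmsb4x, thymosin beta-4, which binds actin monomers. The class I myosins Myo1f and Myo1e changed by -1.11 ± 0.04 and -1.27 ± 0.06, and Flna, filamin A, which crosslinks actin filaments, by -1.08 ± 0.04. A few members went the other way, among them Pfn2, a profilin, at 0.92 ± 0.09, and Arpc5l, a subunit of the branching ARP2/3 complex, at 0.52 ± 0.04. Arpc5l shares exon bases with Wdr38 on the same strand and with Rpl35 on the opposite strand in GENCODE, and reads of these partners cannot be told apart.

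**Figure D2:**
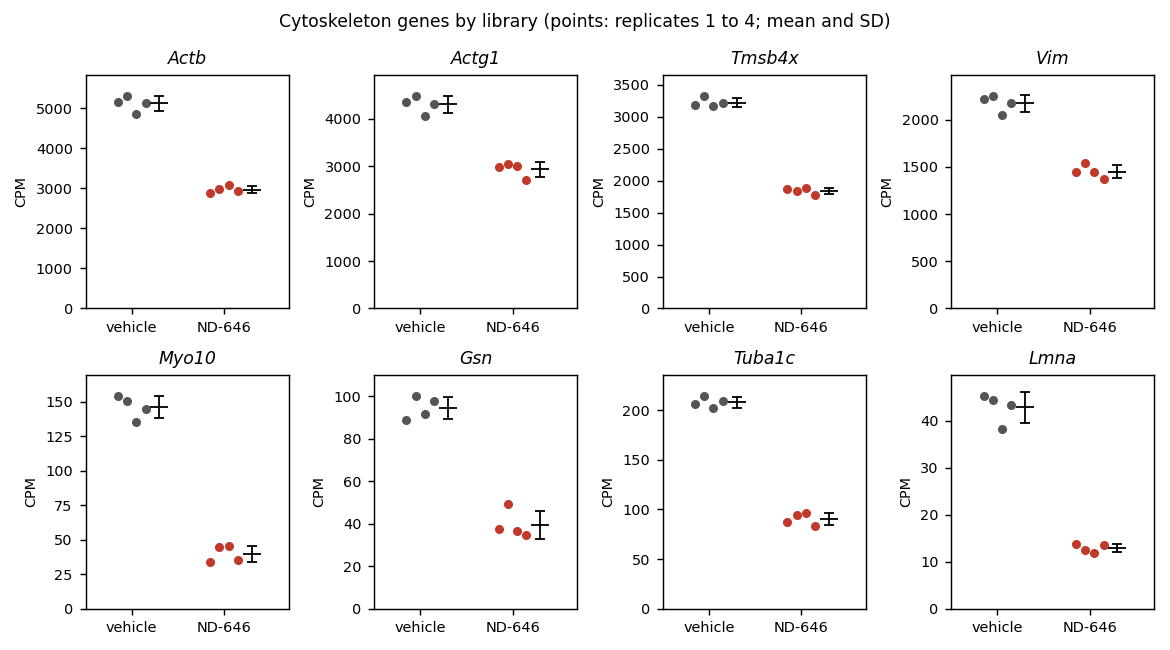
Each panel shows the CPM of 1 gene of the actin, tubulin or filament lists in the 8 libraries, vehicle on the left and ND-646 on the right, on a linear axis from 0, with a line at the mean and a bar of 1 SD (n = 4). The genes drawn were picked from those that fell, and in all 8 panels the 4 treated libraries sit below the 4 vehicle libraries. The actin list and the list of tubulins, septins and intermediate filaments also hold 14 and 5 genes that rose.

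Microtubule and filament genes showed the same direction. Of 34 tubulins, septins and intermediate filaments 23 fell and 5 rose (median -0.45). Tuba1c and Tubb6 encode tubulins and went from 208 ± 5.19 to 90.5 ± 6.16 CPM and 123 ± 5.54 to 56.04 ± 1.68 CPM. Lmna, which encodes the nuclear lamins A and C, was at 45.2, 44.5, 38.1 and 43.4 CPM in vehicle replicates 1 to 4 and 13.7, 12.6, 11.8 and 13.6 CPM in ND-646 replicates 1 to 4, a fall of 1.73 ± 0.07 on the log2 scale. Vim, vimentin, had the fifth largest loss of CPM under the same exclusions, from 2173 ± 89.9 to 1450.5 ± 69.3 CPM.

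Other surface and signalling genes stood among the 12 lowest. Cd7, a surface glycoprotein of T and natural killer cells, was at 19.9, 21.2, 20.8 and 19.2 CPM in vehicle replicates 1 to 4 and 2.26, 3.804, 2.12 and 2.23 CPM in ND-646 replicates 1 to 4, without overlap. Kit, the stem cell factor receptor and a mast cell marker, stood at 38.2, 35.98, 41.9 and 40.4 CPM in vehicle replicates 1 to 4 and 5.76, 9.57, 8.29 and 5.41 CPM in ND-646 replicates 1 to 4. Within the treated group replicates 1 and 4 were lower than 2 and 3. Lat2, an adaptor best known from B cells and mast cells, Ptpn5, a tyrosine phosphatase, and Epas1, the hypoxia factor HIF-2 alpha, fell by 1.91 ± 0.07, 1.96 ± 0.09 and 1.93 ± 0.10 on the log2 scale. Tspoap1, which encodes a partner of the mitochondrial translocator protein, was at 549, 573, 481 and 516 CPM in vehicle replicates 1 to 4 and 96.8, 154, 160.0 and 84.7 CPM in ND-646 replicates 1 to 4, with no overlap. Ly6g5b, a Ly6 family gene, was also among them, at -2.17 ± 0.07. Beside Kit, the mast cell and basophil genes Cpa3 and Mcpt8 went from 1.71 ± 0.435 to 0.646 ± 0.150 CPM and 0.895 ± 0.151 to 0.0899 ± 0.0433 CPM. The ND-646 mean of Mcpt8 lies within the 0.0878 to 0.106 CPM that 3 counts make in an ND-646 library. The part of such cells in the fall of Kit was not tested.

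Most genes of the division machinery fell. Of 39 cyclins, cyclin-dependent kinases, their inhibitors and partner transcription factors 30 fell and 4 rose (median -0.31). Ccnb2, cyclin B2, was at 86.3, 82.9, 90.00 and 86.8 CPM in vehicle replicates 1 to 4 and 30.9, 32.2, 34.7 and 25.9 CPM in ND-646 replicates 1 to 4, so the groups did not overlap. Ccnf, Ccna2 and the transcription factor Foxm1 fell by 1.19 ± 0.07, 1.22 ± 0.08 and 1.15 ± 0.08 on the log2 scale. The 4 that rose were Cdkn2b, Cdkn1b, Cdk6 and Ccnd2, at 0.72, 0.39, 0.34 and 0.14, the last with an adjusted p of 0.0529 (edgeR) without ND-646 replicate 4. Cdkn2b and Cdkn1b encode inhibitors that hold cells in G1. Of 37 kinesins 18 fell and 11 rose, and the falls included Kif18b, Kifc1, Kif20a and Kif23, motors of the mitotic spindle and midbody, at -1.04, -0.82, -1.21 and -1.24. The rises included Kif1a and Kif5c, motors of cargo transport. Kif5c rose by 1.14, and Kif1a went from 0.0886 ± 0.0581 to 0.772 ± 0.213 CPM, with the vehicle mean under the 0.105 to 0.129 CPM that 3 counts make in a vehicle library.

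Chromosome structure and repair genes fell more often than they rose. Cohesin, condensin and CTCF genes fell in 16 and rose in 7 of 28 cases (median -0.24). Esco2 and Cdca5, which establish and protect cohesion, fell by 1.12 ± 0.08 and 0.89 ± 0.06, whereas Esco1, Wapl, Nipbl and Stag2 rose by 0.28, 0.17, 0.15 and 0.14. The call of Nipbl was lost without vehicle replicate 2 or 4 or without ND-646 replicate 2, 3 or 4, and under 3 other scalings or filters. Recombination and Fanconi repair genes fell in 27 of 43 and rose in 5, with the nuclease subunit Eme1 at -1.27 ± 0.10 and Fanci at -0.98 ± 0.08 (SE). End joining, excision and mismatch repair was near even, with the majority turning without vehicle replicate 2, 12 higher and 13 lower of 44, with the flap endonuclease Fen1 at -0.71 ± 0.06 and the end-joining factor Xrcc4 at 0.79 ± 0.08. Of 102 histone genes 19 were tested in these poly(A)-selected libraries, and 10 fell and 1 rose. With no filter on low counts 31 of the 102 fell. H2ax, the variant histone phosphorylated at DNA breaks, went from 99.7 ± 5.13 to 49.8 ± 3.25 CPM.

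Nucleotide supply, nuclear transport and ribosome assembly fell alongside. Purine and pyrimidine synthesis genes fell in 22 and rose in 4 of 30 cases (median -0.27). Rrm2, the S phase subunit of ribonucleotide reductase, went from 222 ± 3.21 to 93.5 ± 11.7 CPM, while Rrm2b, its form made outside S phase, rose from 34.2 ± 3.46 to 58.7 ± 2.798 CPM. Nme1, a nucleoside diphosphate kinase, fell by 0.74 ± 0.04 and Cad, which starts pyrimidine synthesis, by 0.60 ± 0.05. Of 55 nuclear pore and karyopherin genes 32 fell and 2 rose, with the importin Kpna2 at -0.99 ± 0.05 and the transport GTPase Ran at -0.49 ± 0.04. Of 52 genes of RNA polymerase I and ribosome assembly 32 fell and 5 rose (median -0.17), with Nhp2 and Bop1 at -0.50 ± 0.04 and -0.44 ± 0.04. Npm1, nucleophosmin, and Ncl, nucleolin, were among those that rose, by 0.24 and 0.24.

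Promoter windows were searched for a letter motif often found at genes of G2 and mitosis, the cell cycle homology region, TTTGAA or its reverse complement TTCAAA. The windows run from 250 bases before to 50 bases after the start site and come from RefSeq on GRCm38.p6, and 10190 of the 14251 tested genes had one. The motif was in the window of 14.3% of 4088 genes that were not called, 24.5% of 413 genes 1.5 to 2-fold lower, 26.0% of 315 genes 2 to 4-fold lower and 16.0% of 100 genes at least 4-fold lower. It was in 13.4%, 12.5% and 12.8% of genes 1.5 to 2, 2 to 4 and over 4-fold higher, in 14.6% of all tested genes with a window and in 17.9% of all 32851 windows. These shares are descriptions, and a match is not a site of binding. The windows of Ccnb2 and Plk1 are shown as 2 examples among the mitotic genes, with the match in capitals; in Plk1, a mitotic kinase that fell by 1.07 ± 0.07, it lies 30 bases after the start site. Not all mitotic genes held one, since Bub1 and Ccnb1, which fell by 1.06 and 1.13, had no match in this stretch.
Ccnb2 (chr9:70421505-70421804, minus strand): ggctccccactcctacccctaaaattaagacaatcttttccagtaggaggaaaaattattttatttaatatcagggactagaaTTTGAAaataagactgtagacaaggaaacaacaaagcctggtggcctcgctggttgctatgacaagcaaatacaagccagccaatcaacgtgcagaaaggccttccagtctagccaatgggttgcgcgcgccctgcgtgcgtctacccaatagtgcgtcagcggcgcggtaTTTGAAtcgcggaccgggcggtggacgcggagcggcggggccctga
Plk1 (chr7:122159185-122159484, plus strand): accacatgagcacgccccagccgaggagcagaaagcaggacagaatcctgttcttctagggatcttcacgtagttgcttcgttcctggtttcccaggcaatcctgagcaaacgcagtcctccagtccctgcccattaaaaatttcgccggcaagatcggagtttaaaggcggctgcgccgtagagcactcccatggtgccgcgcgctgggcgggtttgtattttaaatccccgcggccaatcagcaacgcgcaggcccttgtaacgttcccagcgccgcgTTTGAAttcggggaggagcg

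At the other end of the ranking stood enzymes, secreted proteins and carriers of several kinds. Cox6a2, the muscle form of a cytochrome oxidase subunit, had the largest rise in that ranking, at 1.597, 1.89, 1.93 and 1.11 CPM in vehicle replicates 1 to 4 and 22.9, 17.2, 19.1 and 20.9 CPM in ND-646 replicates 1 to 4. Aldh1l2, a mitochondrial enzyme that uses folate-bound formate, was at 3.48, 3.43, 3.61 and 3.41 CPM in vehicle replicates 1 to 4 and 25.6, 22.8, 22.9 and 26.04 CPM in ND-646 replicates 1 to 4. That neither gene overlapped between groups was a condition of the ranking. Stc2, a secreted stanniocalcin, rose by 2.41 ± 0.04 and Cth, which makes cysteine from cystathionine, by 2.04 ± 0.11 (SE). Of the 12 highest, Angptl6, an angiopoietin-like protein, Ccn3, a matrix-associated signalling protein, and Slc35d3, a carrier of the nucleotide sugar family, rose by 2.41, 2.03 and 2.45. Ttc39c and Avpi1 rose by 2.00 and 1.84. Tgm2, a protein-crosslinking transglutaminase, was at 20.02, 19.7, 16.8 and 19.1 CPM in vehicle replicates 1 to 4 and 121, 106, 94.01 and 113 CPM in ND-646 replicates 1 to 4. Among the 24 ranked genes Aldh1l2, Angptl6, Cd7, Cox6a2, Lat2 and Tgm2 share exon bases with a gene on the opposite strand in GENCODE. S100a4, the strongest fall, shares them with a predicted gene on the same strand. Since the use of strand in the counting is not given in the sources used here, reads of such partners cannot be told apart.

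**Figure D3:**
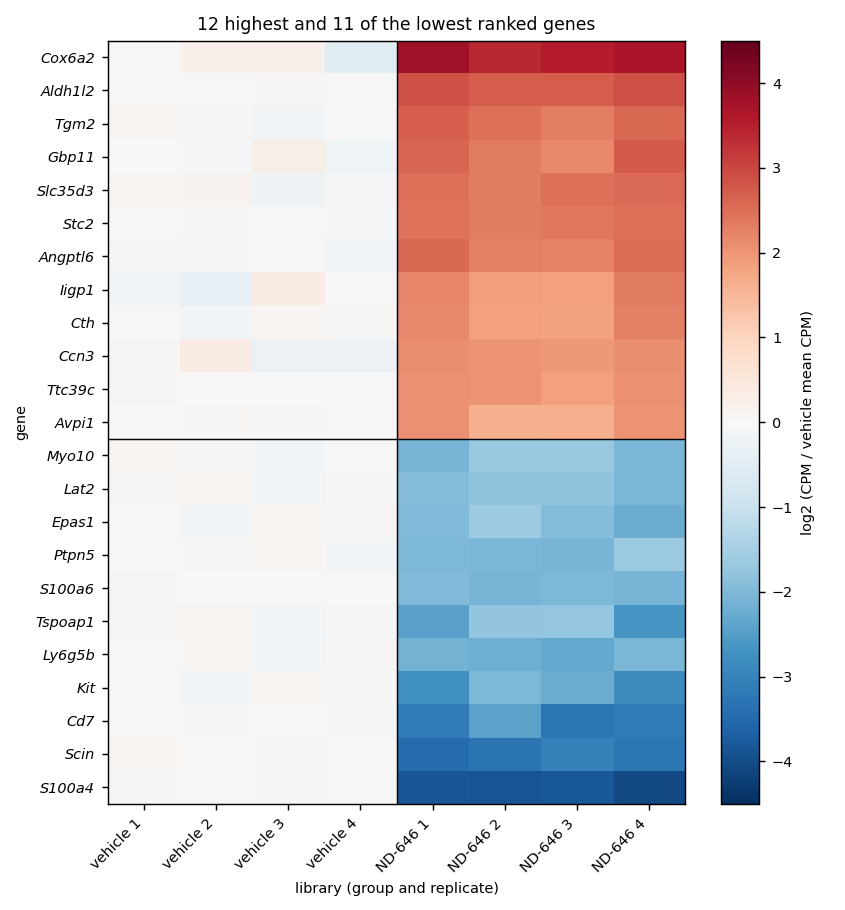
Rows are the 12 highest and 11 of the 12 lowest ranked genes and columns the 8 libraries, and the colour gives log2 of the library's CPM over the mean CPM of the vehicle libraries. Every row keeps 1 sign across the 4 treated libraries, which the ranking required, since it took only genes without overlap between groups. Replicates 1 and 4 are the further from vehicle for all of the 12 highest genes but Slc35d3. Among the lowest genes drawn this holds for Kit, Tspoap1, Myo10, Lat2 and Epas1.

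The basic leucine zipper factors, to which ATF4 belongs, rose in 25 and fell in 9 of 42 cases (median 0.25). Atf5, an ATF4 relative and target, was at 76.3, 80.8, 78.4 and 80.1 CPM in vehicle replicates 1 to 4 and 259, 208, 217 and 267 CPM in ND-646 replicates 1 to 4, and Ddit3, which encodes CHOP, went from 61.4 ± 3.67 to 168 ± 15.6 CPM. Atf4 itself rose by 0.34 ± 0.04, from 450.1 ± 20.98 to 570.2 ± 22.5 CPM. Trib3, a pseudokinase that ATF4 induces, was at 149, 153, 139 and 147 CPM in vehicle replicates 1 to 4 and 456, 364, 387 and 471 CPM in ND-646 replicates 1 to 4, and Nupr1, a stress-induced chromatin protein, at 16.8, 16.2, 14.4 and 16.1 CPM in vehicle replicates 1 to 4 and 57.5, 49.02, 50.7 and 53.8 CPM in ND-646 replicates 1 to 4. In both, every treated library was over 2 times the highest vehicle library. Slc7a11, the cystine importer, was scarce but rose from 0.309 ± 0.103 to 2.28 ± 0.487 CPM, and the importers Slc7a3 and Slc6a9, for cationic amino acids and glycine, from 10.7 ± 0.438 to 36.2 ± 5.85 CPM and 14.5 ± 1.202 to 44.6 ± 5.07 CPM. Chac1, another known target, went from 23.8 ± 2.54 to 27.2 ± 1.14 CPM and rose by 0.19 on the log2 scale, a call lost without vehicle replicate 1 or 3 or without ND-646 replicate 1 or 4 (adjusted p = 0.0622 to 0.0936, edgeR). Jun and Jund, of the same family of factors, fell by 0.64 and 0.40. Of the genes named here, Atf5, Ddit3, Slc6a9, Jun and Jund share exon bases with genes on the opposite strand in GENCODE. The partners include Il4i1 and Nup62 for Atf5 and Mars for Ddit3, and their reads cannot be told apart.

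A composite element bound by ATF4 and C/EBP factors, TGATGNAA or its reverse complement TTNCATCA, was counted in the same windows. It was in 8.51% of 47 genes at least 4-fold higher, 5.56% of 216 genes 2 to 4-fold higher and 3.34% of 449 genes 1.5 to 2-fold higher, against 2.35% of genes not called. On the other side it was in 4.36%, 2.22% and 2.00% of genes 1.5 to 2, 2 to 4 and over 4-fold lower, in 2.69% of all tested genes with a window and in 3.97% of all windows. Counts behind the 2 highest shares were 4 and 12 genes. The windows of Slc7a11, Trib3, Nupr1 and Asns, all of which rose, are shown because each holds a match, in capitals. Chac1 held one too. Ddit3, Atf5, Stc2, Sesn2, Eprs, Sqstm1 and Angptl6, which also rose, held none in this stretch, and Aldh1l2 and Cth had no window.
Slc7a11 (chr3:50443564-50443863, minus strand): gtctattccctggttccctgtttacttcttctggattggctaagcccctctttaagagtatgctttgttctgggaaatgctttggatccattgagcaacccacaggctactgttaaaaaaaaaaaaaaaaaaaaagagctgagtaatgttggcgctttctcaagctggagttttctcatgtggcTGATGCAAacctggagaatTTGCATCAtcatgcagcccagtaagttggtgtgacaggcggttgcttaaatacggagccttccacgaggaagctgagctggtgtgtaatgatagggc
Trib3 (chr2:152344011-152344310, minus strand): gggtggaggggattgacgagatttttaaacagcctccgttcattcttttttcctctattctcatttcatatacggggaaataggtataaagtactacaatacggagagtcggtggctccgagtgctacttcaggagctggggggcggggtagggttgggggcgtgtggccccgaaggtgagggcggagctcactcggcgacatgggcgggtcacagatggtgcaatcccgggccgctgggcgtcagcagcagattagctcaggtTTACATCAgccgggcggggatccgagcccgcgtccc
Nupr1 (chr7:126625421-126625720, minus strand): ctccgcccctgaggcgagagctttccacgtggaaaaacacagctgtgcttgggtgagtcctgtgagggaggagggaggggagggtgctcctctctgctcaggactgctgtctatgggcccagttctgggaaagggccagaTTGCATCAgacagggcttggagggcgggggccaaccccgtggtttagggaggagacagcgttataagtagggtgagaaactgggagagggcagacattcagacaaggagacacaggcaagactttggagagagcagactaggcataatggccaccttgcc
Asns (chr6:7693160-7693459, minus strand): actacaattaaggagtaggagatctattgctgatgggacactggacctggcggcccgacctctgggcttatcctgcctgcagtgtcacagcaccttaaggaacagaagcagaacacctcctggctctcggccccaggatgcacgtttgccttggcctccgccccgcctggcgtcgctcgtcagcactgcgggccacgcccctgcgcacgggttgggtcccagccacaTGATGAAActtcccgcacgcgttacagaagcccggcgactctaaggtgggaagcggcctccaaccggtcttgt

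Enzymes around these genes moved less evenly. Glutamine, glutamate and proline genes rose in 8 and fell in 3 of 19 cases, with Asns, asparagine synthetase, at 0.68 ± 0.05 and the alanine transaminase Gpt2 at 0.60 ± 0.04. Of 20 cytosolic aminoacyl-tRNA synthetases 7 rose, led by Eprs at 0.58 ± 0.04, and 5 fell, led by Hars at -0.33 ± 0.04; the falls were 3 without vehicle replicate 1 or 2 or ND-646 replicate 3. Mitochondrial synthetases had 5 rises and 2 falls in 20, with Fars2 at 0.52 and Mars2 at -0.36. Among 24 serine, glycine and folate enzymes 12 fell and 5 rose, so that Aldh1l2 stood against Mthfd1, the cytosolic trifunctional folate enzyme, at -0.56 ± 0.04. In the list of mTORC1 and lysosomal amino acid sensing 17 of 41 rose and 11 fell. Flcn, folliculin, and Sesn2, a leucine sensor that ATF4 induces, rose by 0.62 and 0.43, and Eif4ebp1, the translation repressor 4E-BP1, by 0.74. AMPK subunits and their upstream kinases had 6 rises and no fall in 13, with Stradb and Cab39l, partners of the kinase LKB1, at 0.45 and 0.32.

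Autophagy genes rose more often than they fell. Of 48 tested, 31 rose and 2 fell (1 without vehicle replicate 1 or 4 or ND-646 replicate 2), with a median log2 fold change of 0.18. Sqstm1, the cargo receptor p62, was at 354, 359, 369.6 and 363 CPM in vehicle replicates 1 to 4 and 742, 593, 576 and 744 CPM in ND-646 replicates 1 to 4, higher in each treated library than in any vehicle library. The mitophagy genes Pink1 and Bnip3l rose by 0.75 ± 0.06 and 0.69 ± 0.05, and Gabarapl1, an ATG8 family member, by 0.61 ± 0.03 (SE). Vacuolar ATPase subunits, which acidify lysosomes, rose in 8 and fell in 1 of 18 cases, led by Atp6v1g1 at 0.80 ± 0.06. Without vehicle replicate 4 or ND-646 replicate 1, with either other scaling, in DESeq2's test and with the stricter filter the rises were 5, and the lone fall became 0 to 2 as single libraries were left out. Lysosomal hydrolases and membrane proteins split 20 higher to 19 lower of 57, and 18 to 22 with DESeq2's scaling, with more falls than rises also without ND-646 replicate 1, 2 or 4. Among them Ctsd, cathepsin D, went from 738 ± 22.7 to 413 ± 7.85 CPM, and Ctsw, a cathepsin of cytotoxic lymphocytes, from 184 ± 5.12 to 97.6 ± 4.31 CPM. Proteasome genes fell in 26 and rose in 8 of 47, with Psmd13 at -0.52, and the largest rise was that of the immunoproteasome subunit Psmb9, at 0.69 ± 0.04. F-box and cullin adaptor genes rose in 58 and fell in 20 of 128 cases, with Fbxl12 from 34.2 ± 1.47 to 68.2 ± 3.54 CPM and Klhl30 from 3.13 ± 0.515 to 0.138 ± 0.0329 CPM.

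Parts of the early secretory pathway held more rises than the background. COPI and COPII coat and cargo receptor genes rose in 26 and fell in 5 of 43 cases (median 0.13). Sec23a, a COPII coat subunit, and Creb3l2, a transcription factor that regulates such genes, rose by 0.71 ± 0.05 and 1.13 ± 0.07. Translocation and signal peptide genes had 12 rises and 5 falls in 29, with Sec61a1, the channel subunit, at 0.50 ± 0.04 and Ccdc47 at 0.60 ± 0.04. Rises and falls numbered 12 and 7 of 36 in N-glycan assembly (Stt3a 0.35, Krtcap2 0.39), near the share over all genes and with 8 rises without ND-646 replicate 1, and 20 and 5 of 47 among RAB GTPases (Rab5b 0.44). The falls were 3 among RAB GTPases without vehicle replicate 2 or ND-646 replicate 2 or 3, and 3 in translocation without vehicle replicate 1. Rab27a, the RAB of granule exocytosis, fell by 0.50 ± 0.04, and so did the synaptotagmin-like Sytl2 and Sytl3, which bind it, by 0.75 ± 0.05 and 0.74 ± 0.05. The SNARE and exocytosis list as a whole had 16 rises and 9 falls in 40. Protein disulphide and prolyl isomerases split evenly, 15 and 15 of 47, with the oxidase Ero1l from 349 ± 13.1 to 671 ± 23.2 CPM and Fkbp5 from 291 ± 2.17 to 207 ± 4.07 CPM.

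Glycan-finishing enzymes showed large single changes in both directions. Of 63 sialyl-, fucosyl- and O-glycosyltransferases 25 fell and 18 rose. Mgat3, which adds a bisecting sugar to N-glycans, was at 14.6, 13.1, 13.8 and 13.4 CPM in vehicle replicates 1 to 4 and 1.62, 1.902, 1.59 and 2.26 CPM in ND-646 replicates 1 to 4, with no overlap. St6gal1, the alpha-2,6 sialyltransferase, went from 75.2 ± 2.76 to 35.1 ± 1.43 CPM, Gcnt1, which branches O-glycans, from 49.04 ± 4.697 to 14.7 ± 2.04 CPM, and Fut7, needed for selectin ligands, from 25.7 ± 1.73 to 12.1 ± 0.599 CPM. Gcnt2 and Chst2 rose by 1.37 and 1.62. In nucleotide sugar and hexosamine synthesis 9 of 24 rose and 6 fell, with Gnpnat1, an enzyme of UDP-GlcNAc synthesis, at 31.4, 30.6, 30.2 and 28.7 CPM in vehicle replicates 1 to 4 and 75.5, 60.5, 64.8 and 75.2 CPM in ND-646 replicates 1 to 4, and Ogt, which places GlcNAc on proteins, at 0.47 ± 0.05.

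Class I histocompatibility genes made the 2 largest gains of CPM, leaving out lipid and T cell state genes, predicted and mitochondrially encoded genes and receptor segments. H2-K1 was at 3467, 3626, 3523 and 3658 CPM in vehicle replicates 1 to 4 and 4928, 4949.7, 4846 and 4826 CPM in ND-646 replicates 1 to 4, and H2-Q7 at 1450.5, 1486, 1534 and 1541 CPM in vehicle replicates 1 to 4 and 2446, 2639.9, 2577 and 2566 CPM in ND-646 replicates 1 to 4. In both genes the groups lay apart, with log2 fold changes of 0.45 ± 0.04 and 0.77 ± 0.04 (SE), and H2-D1 rose by 0.29 ± 0.04. These genes are near-identical copies of one another in places, so how the counting shared reads between them is uncertain. A pair of genes that interferons induce stood among the 12 highest. Gbp11, a guanylate-binding protein, was at 11.5, 10.9, 13.8 and 10.02 CPM in vehicle replicates 1 to 4 and 71.8, 58.1, 52.05 and 77.5 CPM in ND-646 replicates 1 to 4, and Iigp1, an immunity-related GTPase, at 5.65, 4.79, 7.82 and 6.27 CPM in vehicle replicates 1 to 4 and 28.4, 22.4, 22.2 and 30.7 CPM in ND-646 replicates 1 to 4. In both, treated replicates 1 and 4 were above 2 and 3. TRIM ubiquitin ligases rose in 23 and fell in 7 of 40 cases, led by Trim30d at 1.35 ± 0.07 and Trim12a at 0.77 ± 0.05. Of 7 Schlafen genes 3 rose (Slfn1 0.99, Slfn5 0.76) and 2 fell, and of 8 GIMAP GTPases, lymphocyte proteins, 4 rose (Gimap3 0.50, Gimap4 0.34) and 0 fell (1 without ND-646 replicate 1 and under the other scalings). Not all such genes moved up, since Ifitm1, an interferon-inducible membrane protein, was at 1378, 1456, 1398 and 1457 CPM in vehicle replicates 1 to 4 and 467, 453, 462 and 449 CPM in ND-646 replicates 1 to 4, with no overlap. Ifitm2 fell by 0.97 ± 0.05, and Bst2, tetherin, did not pass, going from 79.3 ± 3.303 to 74.6 ± 8.17 CPM (adjusted p = 0.28, edgeR).

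Cell death and inflammatory sensing genes rose in 12 and fell in 9 of 30 cases. The inflammatory caspase gene Casp4 went from 8.504 ± 0.675 to 19.2 ± 1.04 CPM. In NF-kappaB and TNF receptor signalling 18 of 39 rose and 11 fell, with Relb, a subunit of the alternative pathway, at 23.1, 25.2, 21.9 and 23.1 CPM in vehicle replicates 1 to 4 and 57.9, 46.1, 48.2 and 57.1 CPM in ND-646 replicates 1 to 4 and the adaptor Traf1 at 0.44 ± 0.04. Protease inhibitors had 5 rises and 9 falls in 24. Among them Cst3, cystatin C, fell from 172 ± 3.93 to 105 ± 4.43 CPM, Serpinb9b from 3.74 ± 0.439 to 0.872 ± 0.121 CPM, and Serpina3g, an inhibitor of cathepsins, rose from 15.9 ± 1.98 to 53.1 ± 18.5 CPM. The rises were 3 without ND-646 replicate 1. p53 target genes split 11 to 12 of 33 (12 to 11 without vehicle replicate 2 and 12 to 10 without ND-646 replicate 2), and NRF2 targets and glutathione enzymes 14 to 13 of 39 (13 to 15 with DESeq2's scaling, and more falls than rises without vehicle replicate 1 or 2 or ND-646 replicate 1 or 4). Nfe2l2, which encodes NRF2, rose from 28.9 ± 1.78 to 58.2 ± 3.001 CPM. Its known target Osgin1 fell from 29.97 ± 1.16 to 15.5 ± 1.17 CPM.

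Stress proteins of the cytosol and of mitochondria differed in detail. Cytosolic chaperones fell in 16 and rose in 8 of 36, with Cct5, of the chaperonin that folds actin and tubulin, at -0.43 ± 0.04. Mitochondrial chaperones, proteases and import genes fell in 16 of 43 and rose in 9. The members that rose most were the matrix quality control genes Lonp1, Dnaja3, Clpp and Hspa9, at 0.61 ± 0.04, 0.64 ± 0.05, 0.55 ± 0.06 and 0.54 ± 0.04 (SE). Phb, prohibitin, fell by 0.57 ± 0.05. Fusion, fission and cristae genes had 6 rises and 8 falls in 25 (Mtfr1l 0.36, Mtch1 -0.42).

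Central carbon pathways moved in both directions. The tricarboxylic acid cycle had 6 rises and 10 falls in 25 genes, none of 2-fold, with Pck2, the mitochondrial PEP carboxykinase, at 0.51 ± 0.04 and Idh3a at -0.46 ± 0.04. Genes supplying pyruvate and acetyl-CoA split 4 to 7 of 22 (Acat2 -0.33), the pentose phosphate pathway 3 to 5 of 11 (Tkt -0.26, Shpk 0.83), and mitochondrial solute carriers 12 to 9 of 39 (Slc25a36 0.62, Slc25a5 -0.31). Branched-chain amino acid and propionate catabolism leaned up, with 15 rises and 3 falls in 23 (median 0.23). Bcat1, the cytosolic transaminase that begins it, rose by 0.37, and Pcca and Pccb, the subunits of propionyl-CoA carboxylase, by 0.50 and 0.39, while Auh fell by 0.35. Propionyl-CoA carboxylase is, like the inhibited enzyme, a biotin-dependent carboxylase. In glycogen metabolism 9 of 18 rose and 2 fell, with Phkb at 0.52 and Pygm, muscle glycogen phosphorylase, at -1.07. Odc1, the first enzyme of polyamine synthesis, was at 495, 520.2, 441 and 475 CPM in vehicle replicates 1 to 4 and 282, 275, 273 and 255 CPM in ND-646 replicates 1 to 4, and Eif5a, the protein that carries the polyamine-derived residue hypusine, fell by 0.47 ± 0.04, in a list that split 8 to 6 of 18 (6 to 7 without ND-646 replicate 1). NAD and tryptophan genes rose in 7 and fell in 4 of 20, with Nampt at 0.35 and Bst1, a surface NAD hydrolase, at -1.30.

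A pair of glucose-responsive arrestin-like genes rose together. Txnip, an inhibitor of glucose uptake, was at 277, 258, 303 and 294 CPM in vehicle replicates 1 to 4 and 655, 567, 564 and 776 CPM in ND-646 replicates 1 to 4, and its relative Arrdc4 at 1.19, 1.57, 1.504 and 1.71 CPM in vehicle replicates 1 to 4 and 7.76, 5.79, 4.83 and 8.92 CPM in ND-646 replicates 1 to 4. Treated libraries 1 and 4 were the highest for both. These 2 were picked after their values were seen, Txnip from no list, and Txnip shares exon bases with a predicted gene on the opposite strand. Circadian clock genes rose in 12 and fell in 4 of 22 cases (2 falls without vehicle replicate 2), and the clock factor Npas2 was at 3.604, 3.53, 3.52 and 2.94 CPM in vehicle replicates 1 to 4 and 9.99, 10.6, 11.2 and 10.4 CPM in ND-646 replicates 1 to 4. Dbp, a clock output factor, went from 13.3 ± 0.727 to 26 ± 2.102 CPM. Nuclear receptors rose in 11 and fell in 6 of 26, with Rxra, the shared partner of many of them, from 3.16 ± 0.359 to 10.8 ± 1.31 CPM and the thyroid hormone receptor Thrb from 9.21 ± 0.983 to 20.3 ± 1.02 CPM. Abca1 and Abcg1, sterol exporters that RXR heterodimers are known to control, rose by 3.08 ± 0.14 and 2.36 ± 0.06, in an ABC transporter list with 12 rises and 9 falls in 28. Basic helix-loop-helix factors split 16 to 12 of 37, with Id2 from 261 ± 7.45 to 135 ± 2.92 CPM, and homeobox and POU genes 15 to 3 of 29, with Satb1, a chromatin organiser of T cells, at 0.47 and Zhx2 at 1.28.

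Zinc finger genes and long non-coding RNAs leaned up. Of 394 Zfp and Zbtb genes, zinc finger genes of several kinds, 163 rose and 36 fell (median 0.12). Zbtb18 went from 40.8 ± 1.09 to 99.7 ± 6.81 CPM, Zfp608 rose by 1.16 ± 0.05, and Zfp683, the residency factor Hobit, fell from 8.09 ± 1.08 to 1.11 ± 0.156 CPM. Of 26 hosts of small nucleolar RNAs and nuclear long non-coding RNAs 13 rose and 5 fell. Gas5, a host gene whose spliced RNA is degraded when it is translated, was at 251, 251, 245 and 248 CPM in vehicle replicates 1 to 4 and 622, 581, 551 and 567 CPM in ND-646 replicates 1 to 4, above the vehicle range in every treated library. Snhg12 rose by 1.27 ± 0.04 and Malat1, an abundant nuclear RNA, by 0.90 ± 0.06. Histone demethylases rose in 14 and fell in 4 of 27, with Kdm6b at 0.72 and Kdm7a at 0.61. DNA methylation and TET genes fell in 11 and rose in 4 of 23, with Gadd45g, a stress-induced growth arrest gene, from 111 ± 13.4 to 43.4 ± 1.65 CPM. Histone methyltransferases and Polycomb genes (15 and 16 of 50, 16 and 15 without vehicle replicate 3, Prdm1 -0.81) and chromatin remodellers (19 and 13 of 46, Baz1a -0.48) moved both ways.

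Genes of translation moved apart by kind. Ribosomal protein genes rose in 31 and fell in 22 of 81 cases, with Rpl12 at 0.41, Rpl11 at -0.41 and Rpl37a at -0.48. Without ND-646 replicate 1 the balance turned, to 25 rises and 28 falls. Tpt1, a growth-associated protein whose mRNA is regulated like theirs, rose from 2461 ± 70.8 to 3287 ± 225 CPM. Initiation and elongation factors and their regulators fell in 30 and rose in 14 of 69, with the helicase Eif4a1 at -0.46 ± 0.04 and Eef2, the elongation factor, at 5708, 5657, 5769.8 and 5915 CPM in vehicle replicates 1 to 4 and 5298, 5192, 5219 and 5294 CPM in ND-646 replicates 1 to 4. Splicing factors fell in 50 and rose in 19 of 128 (Rbm3 -0.51, Celf5 -1.25), RNA decay and microRNA genes in 18 and 11 of 55 (Zfp36l2 -0.46, Upf1 -0.38). Enzymes that modify tRNA and other RNA rose in 27 and fell in 12 of 80 (Elp3 0.49, Mettl9 0.44).

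**Figure D4:**
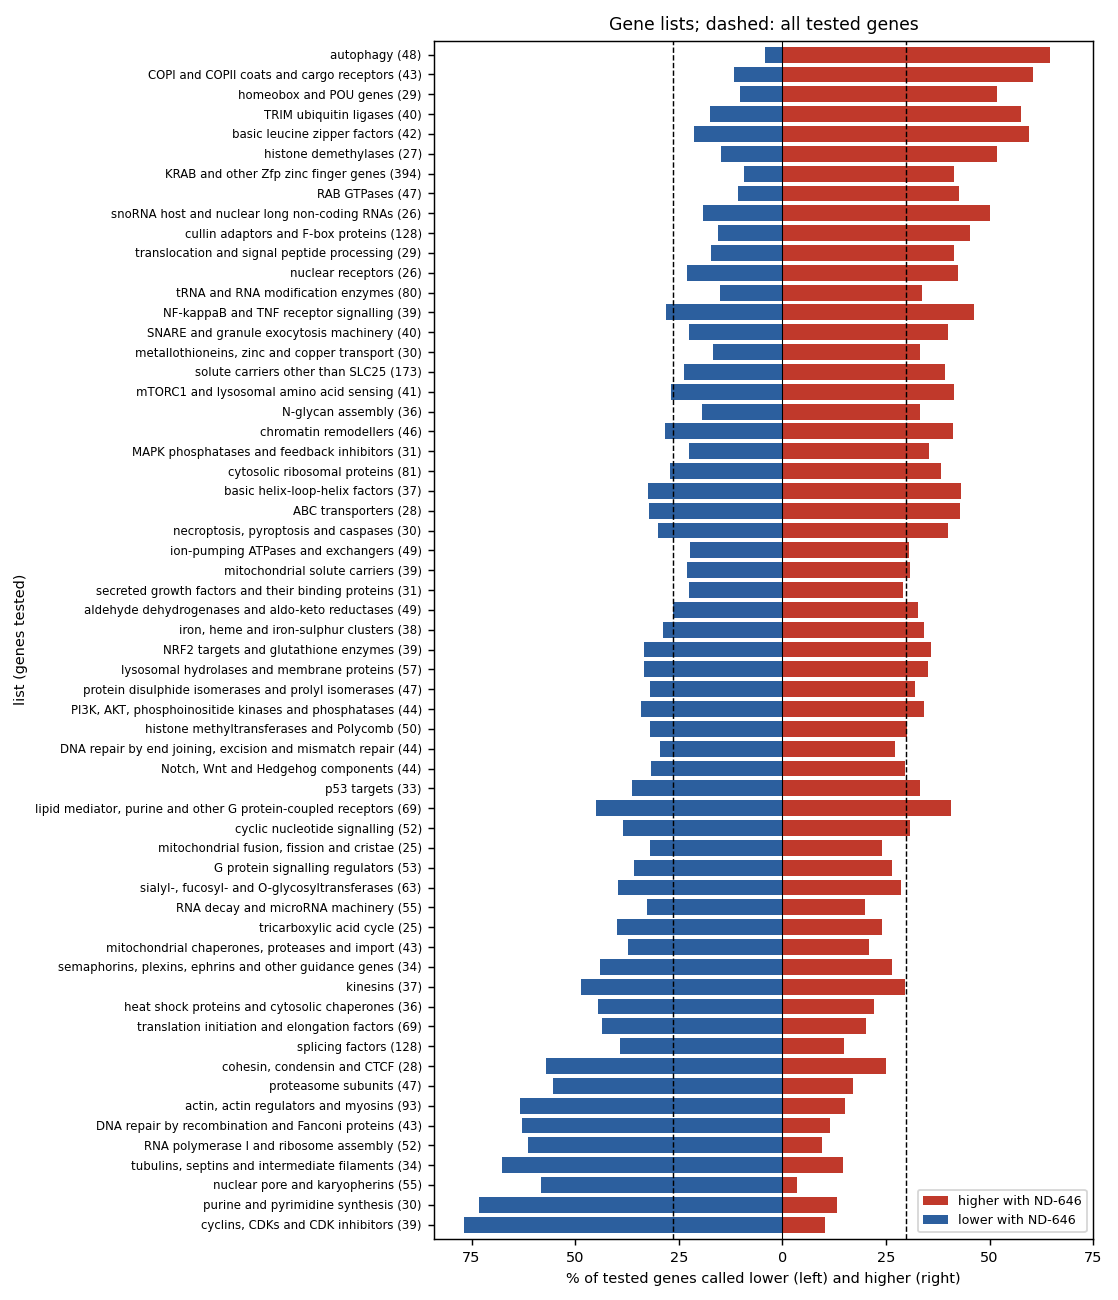
For the described pathway and family lists with 25 or more tested genes, the bar to the right gives the percentage of tested genes called higher with ND-646 and the bar to the left the percentage called lower, ordered by the difference. Dashed lines mark the shares over all tested genes, 29.8% and 26.5%, and autophagy and cyclins stand at opposite ends.

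Receptors and signalling genes changed often, and in both directions. Lipid mediator, purine and other G protein-coupled receptors, with the P2X channels counted among them, rose in 28 and fell in 31 of 69 cases, and 13 of the falls were at least 2-fold. Gpr55, a receptor for lysophosphatidylinositol, was at 36.1, 36.2, 32.2 and 34.6 CPM in vehicle replicates 1 to 4 and 11.5, 11.1, 10.5 and 11.6 CPM in ND-646 replicates 1 to 4. The ATP-gated channel gene P2rx7 rose from 3.85 ± 0.686 to 11.1 ± 1.18 CPM. Nt5e, which encodes CD73 and makes adenosine, rose from 5.61 ± 0.734 to 16.7 ± 1.94 CPM, in a Ly6 and GPI-anchored list that split 7 to 7 of 21 and in which Cd52 fell from 434 ± 12.7 to 218 ± 13.4 CPM. Genes of phosphoinositide signalling split 15 to 15 of 44. Pik3r6, a regulatory subunit of PI3K gamma, was at 15.5, 15.3, 12.9 and 13.8 CPM in vehicle replicates 1 to 4 and 2.55, 2.58, 2.26 and 1.84 CPM in ND-646 replicates 1 to 4, and Plcg2, the phospholipase used by B and natural killer cells, went from 119 ± 5.26 to 54.3 ± 3.28 CPM. Wnt10b, a secreted ligand, was at 71.5, 70.7, 75.6 and 75.5 CPM in vehicle replicates 1 to 4 and 22.8, 24.2, 22.9 and 22.9 CPM in ND-646 replicates 1 to 4, the leading fall in a Notch, Wnt and Hedgehog list of 13 rises and 14 falls in 44. Guidance genes rose in 9 and fell in 15 of 34, with Sema6d from 14.2 ± 1.96 to 2.62 ± 0.460 CPM and Nrn1, neuritin, from 17.97 ± 1.61 to 52.9 ± 3.83 CPM.

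The remaining signalling and transport lists moved in both directions. Rises and falls were 16 and 20 of 52 in cyclic nucleotide signalling (Rapgef3, a cAMP-activated exchange factor, -1.69; Akap8l 0.75) and 14 and 19 of 53 among G protein regulators (Gna15 -0.77, Rgs3 -0.65). MAPK phosphatases and feedback inhibitors had 11 and 7 of 31 (Dusp2 -0.47, Errfi1 -0.71), the Hippo pathway 8 and 6 of 22 (Yap1 0.52, Stk4 0.22) and secreted growth factors 9 and 7 of 31 (Vegfa 0.55, Ltbp3 -0.81; 8 and 9 with no low-count filter). Solute carriers outside the SLC25 family rose in 68 and fell in 41 of 173, with the lysosomal glutamine carrier Slc38a7 from 15.1 ± 0.704 to 37.2 ± 2.94 CPM. Ion pumps, related ATPases, exchangers and channels had 15 rises and 11 falls in 49 (Lrrc8d 0.72, Atp8b4 -0.65). These counts were 11 and 12 with upper-quartile scaling, and 12 and 13 without vehicle replicate 2 or ND-646 replicate 4. Metal transport and metallothioneins had 10 and 5 of 30 (Slc39a14 -0.83, Slc39a6 -0.43), and iron, heme and iron-sulphur genes 13 and 11 of 38. Tfrc, the transferrin receptor, fell by 0.67 ± 0.05, and Alad, an enzyme of heme synthesis, by 0.71 ± 0.04. Tetraspanin and MS4A genes had 11 rises and 4 falls in 24, with Tspan9 from 8.39 ± 0.777 to 1.04 ± 0.307 CPM and Tspan13 from 108 ± 2.72 to 181 ± 8.85 CPM. Matrix enzymes had 7 and 6 of 19 (Hpse, heparanase, -0.53), and aldehyde, aldo-keto and related oxidoreductases 16 and 13 of 49 (Akr1c12 1.26). Across all 84 pathway and family lists, 48 held more rises than falls, 33 more falls than rises and 3 equal numbers.

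A few genes varied within a group more than most. Hspa1a, an inducible HSP70 gene, stood at 5.201, 4.69, 4.21 and 5.71 CPM in vehicle replicates 1 to 4 and 20.3, 24.6, 10.7 and 7.32 CPM in ND-646 replicates 1 to 4. Treated replicates 1 and 2 were above 20 CPM and 3 and 4 well below, yet the gene passed the test (log2 fold change 1.68 ± 0.45, SE; adjusted p = 0.0187, edgeR), though not without vehicle replicate 2 or 3 (adjusted p = 0.0533 and 0.0524). Hspa1b, its near-identical copy, with which reads may be exchanged, did not pass (adjusted p = 0.0618, edgeR), though it did in DESeq2 (adjusted p = 0.011), in limma-voom (0.0234) and in edgeR without ND-646 replicate 3 (0.0477) or 4 (0.024). Lars2, mitochondrial leucyl-tRNA synthetase, was at 187, 141, 203 and 459 CPM in vehicle replicates 1 to 4 and 127, 165, 144 and 173 CPM in ND-646 replicates 1 to 4, high in vehicle replicate 4 alone, and did not pass (adjusted p = 0.184, edgeR). Tsix, the antisense partner of Xist, was at 65.97, 36.3, 60.4 and 45.6 CPM in vehicle replicates 1 to 4 and 9.67, 53.8, 63.2 and 27.6 CPM in ND-646 replicates 1 to 4, low in treated replicate 1, and Hist1h2ap, a histone gene, at 85.4, 80.3, 86.8 and 57.5 CPM in vehicle replicates 1 to 4 and 6.396, 31.4, 58.5 and 52.01 CPM in ND-646 replicates 1 to 4, low in the same library. Neither passed the test in edgeR, and Hist1h2ap did in limma-voom (adjusted p = 0.0131). Galnt2l had no count in vehicle replicate 4 and 9.49 to 25.7 CPM in the other 7 libraries. Srp54b, a copy of a signal recognition particle gene, ranged from 33.3 to 89.01 CPM and did not pass in edgeR, but did in limma-voom (adjusted p = 0.0353). Vldlr, which rose, varied among vehicle libraries at 2.42, 1.08, 1.504 and 2.004 CPM in vehicle replicates 1 to 4 and 27.1, 20.98, 22.3 and 25.5 CPM in ND-646 replicates 1 to 4. The variable genes were chosen at 10 mean CPM or more over all 8 libraries. Vldlr met this only through the ND-646 group, at 24.0 CPM against 1.75 CPM in vehicle, so its vehicle spread is that of a low level.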

How the data were processed

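RNA of 8 cultures was sequenced as poly(A)-selected, directional libraries, per the labels' protocols. The authors deposited expected counts per gene, estimated by Salmon after STAR alignment, per the submitters' processing notes, which also name DESeq2. Their versions, the genome build and the annotation were not given in the sources used here, nor was the use of strand. Of the deposited estimated counts 9.16% were not whole (tolerance 1e-06), and all were rounded. Groups came from the sample titles. Of 55291 genes, 14251 passed edgeR's filterByExpr and were fitted with edgeR 4.0.16 (R 4.3.3; TMM scaling, quasi-likelihood, robust) and called at a Benjamini-Hochberg adjusted p of 0.05. CPM are TMM-scaled, and a floor of 3 counts is 0.0878 to 0.129 CPM (counting error only). Other fits used limma-voom (limma 3.58.1), DESeq2 1.42.0, 2 other scalings, 2 other filters, a minimum change of 2-fold, the replicate number as a block, and each library left out.

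The genes and lists described were chosen with earlier results of these data known. Named were the 12 highest and 12 lowest fold changes at 10 mean CPM or more without overlap, the 6 largest gains and 6 largest losses of CPM, the 2 members of smallest p in each list, the most abundant member of each cell marker list, the 5 most variable genes in each group, and Acaca and Acacb. The rankings by fold change and by CPM left out lipid and T cell state genes, predicted genes, mitochondrially encoded genes and receptor segments. A few items that the rule names are not reported here. Other named genes were chosen after their values were seen. Of 262 genes named, 27 share exon bases with a gene on the same strand in GENCODE and 75 with one on the opposite strand. Promoter windows were matched by symbol. Besides the 2 motifs described, an E-box, CACGTG, and CCAAT or its reverse complement were counted in them. The E-box was in 12.3% of genes not called, 6.94% of genes 2 to 4-fold higher and 7.3% of genes 2 to 4-fold lower. CCAAT was in 41.8%, 31.9% and 49.2% in the same order.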

Additional observations from a re-analysis of the deposited data

Results flagged for a closer look

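In 17 of 538 groups of 4 values, 3.16%, 1 library stood apart from the other 3 by most of the group's range, past Dixon's 95% critical value, where chance gives about 1 group in 20. Of these, 9 were in vehicle and 8 in ND-646 libraries. Among vehicle libraries, replicate 2 was lowest for Bnip3l (92.36 CPM, the others 97.85 to 98.42), Prdm1 (20.72 CPM, the others 24.81 to 25.31) and Trim30d (7.35 CPM, the others 7.607 to 7.631), and highest for Rpl11 (1073 CPM, the others 1029 to 1035). Vehicle replicate 4 was lowest for Kpna2 (224.1 CPM, the others 235.5 to 236.3) and Npas2 (2.942 CPM, the others 3.524 to 3.604). Scin was highest in vehicle replicate 1 (30.79 CPM, the others 27.81 to 28.24) and Fanci and Cd79b in replicate 3 (35.46 CPM, the others 30.62 to 31.24, and 4.255 CPM, the others 2.87 to 3.071).

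Among ND-646 libraries, replicate 2 was highest for Cd7 (3.804 CPM, the others 2.117 to 2.259), Tspan9 (1.493 CPM, the others 0.8469 to 0.9553) and Wnt10b (24.2 CPM, the others 22.75 to 22.94), and lowest for Ran (310.6 CPM, the others 320.9 to 322.6). Replicate 1 was lowest for Il2ra (563.7 CPM, the others 589.4 to 591.5) and highest for Snhg12 (124.8 CPM, the others 114 to 115.6). Rapgef3 was highest in replicate 3 (4.376 CPM, the others 3.19 to 3.29), and Rbm3 lowest in replicate 4 (467.1 CPM, the others 492.4 to 495.4).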

How the results depend on the processing

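An alternative edgeR test asked whether the change itself exceeded 2-fold. It differs from the 375 and 623 called genes above, whose estimates reached 2-fold. This test left 166 genes higher and 275 lower, against 4247 and 3781. With it 20 lists held more rises than falls and 19 more falls than rises, against 48 and 33. Under the other alternatives 7424 to 8538 genes were called, 90.3% to 98.2% of the calls were kept and none turned direction. With 1 library left out, 3856 to 4069 genes were higher and 3514 to 3866 lower. Other scalings put 48.7% to 49.9% of called genes on the higher side, against 52.9%. Libraries of the same replicate number did not deviate together (correlations -0.121 to 0.0659). This cannot show whether the numbers pair samples by mouse or culture, which the labels do not say. With the number as a replicate block 7864 genes were called, 4163 higher and 3701 lower, 7772 of them shared, and no named gene gained or lost a call.

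Of the 254 named genes that were called, 1 lost its call under DESeq2 size factors, upper-quartile scaling and the stricter filter, 0 under the other tests, no filter or the block, and 1 to 3 with a library left out; 174 lost it at 2-fold. Of the named genes not called, Hspa1b, Hist1h2ap and Srp54b passed under 1 or more alternatives. The fold change of Acaca, not called, turned sign to -0.000148 with DESeq2 size factors, -0.006833 with upper-quartile scaling, -0.000127 in DESeq2's test and -0.003528 with the stricter filter, and ran from -0.03249 to 0.03343 with 1 library left out. In the same way Galnt2l ran from -0.02425 to 0.787 and Xist from -0.1371 to 0.09968, neither called. The cause was not tested.

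With 1 library left out, the difference in the share of the 500 most abundant genes was -1.111 to -0.7756 percentage points, of mitochondrially encoded genes -0.7861 to -0.6644, of predicted genes -0.2218 to -0.1184, and in genes with 3 or more counts -435.8 to -340.1. The p-value is then 0.05714, the smallest that 3 against 4 allows. Among the lists described, the lysosomal, NRF2, p53, end joining, polyamine, histone methyltransferase, growth factor, ion pump and ribosomal protein lists changed their majority under 1 or more alternatives, and at 2-fold the serine and folate, lysosomal, iron, ion pump, tetraspanin and helix-loop-helix lists did. Genes near the floor and overlapping genes are the least certain.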
